A study of Ciona robusta with 133 samples.

Results

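The step described here leads from a8.19, an anterior neural precursor of the 112-cell embryo, to a9.37+a9.38, the group collected from the same lineage at the 6-row neural plate stage of the ascidian Ciona robusta. Libraries were chosen by the cell type their labels name, which gave 6 libraries of a9.37+a9.38 from 3 embryos and 7 libraries of a8.19 from 4 embryos, 13 of the 133 libraries of the series. The series holds hand-dissected single blastomeres of 19 cell types from the 16-cell stage through 32, 64 and 112 cells to the neural plate, and its title asks how alike the lineages of the nervous system are. Read counts of cells of 1 type from 1 embryo were summed, so n below counts embryos. No treatment or genotype is named for any group. The other groups used are the epidermis-fated cells a9.43+a9.44 (6 libraries, 3 embryos) and a8.22 (7 libraries, 4 embryos), the posterior neural cells A9.13+A9.14 (6 libraries, 2 embryos) and A8.7 (7 libraries, 5 embryos), and the earlier a-line cells a5.3, a6.5, a6.6, a7.10 and a7.11. Labels of the neural plate groups name a pair of cells and give the column of the plate, but do not say which named cell a library holds.

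Ascidian embryos divide in an invariant pattern, so that the descent of every early blastomere is known. In the a line, a6.5 takes a neural fate after contact with FGF-producing vegetal cells. Its descendants a7.10 and a8.19 keep that fate, and the a-line neural plate contributes to the anterior brain of the larva. The branch from a6.6, the sister of a6.5, leads by way of a7.11 and a8.22 to a9.43+a9.44 and forms epidermis. The A line lies on the vegetal side and its neural cells contribute to more posterior parts of the nervous system.

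The deposited table gives 15287 gene models by KH identifier. Neither the table nor the reference used here pairs these identifiers with gene names, so no function can be attached to them, marker genes of a cell type could not be looked up, and few identifiers are printed. Libraries of a9.37+a9.38 held 1777695 to 5317670 counts (median 2723352) and those of a8.19 held 6354666 to 11151467 (median 7815230). Both groups had 10056 or more genes with at least 1 count in every library. The reads carry no molecular identifiers, so counting intervals and limits cover counting error only. Neural plate and 112-cell embryos are different embryos, collected at different stages, and the stage and the collection cannot be told apart. Paralogs and overlapping genes are uncertain, because it is not given how shared reads were counted or whether strand was used.

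Nearly 1 gene in 5 changed over the step. Of 12621 genes tested, 2370 passed an adjusted p of 0.05 in edgeR's quasi-likelihood test, 18.8% of those tested, with 1179 higher (9.34%) and 1191 lower in a9.37+a9.38 than in a8.19. The balance of higher and lower genes depended on the method, with 49.7% of called genes higher here, 56.3% (1304 higher and 1014 lower) with RLE size factors and 61.9% (1392 higher and 857 lower) by limma voom. The median log2 fold change was 1.43 among higher genes and -1.002 among lower genes, and 404 higher genes against 156 lower genes changed at least 4-fold. In 881 of the 2370 genes the change was under 2-fold. Every a9.37+a9.38 embryo lay above every a8.19 embryo in 921 of the 1179 higher genes (78.1%), against 12.3% of all genes tested, and below in 985 of the 1191 lower genes (82.7%), against 11.9% of all. Fits of fewer groups called fewer genes. With only a9.37+a9.38 and a8.19 in the fit 1251 genes passed, 1162 of them among the 2370, and with the 8 cell types of the last 2 stages 998 passed, 978 of them among the 2370.

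Called genes took up a large share of the RNA. The genes higher after the step received 21.1%, 23.1% and 22.6% of all counts in the 3 a9.37+a9.38 embryos, against 9.34%, 10.9%, 10.6% and 9.02% in the 4 a8.19 embryos. The genes lower after the step received 14.5%, 13.6% and 13.4% in a9.37+a9.38, against 26.6%, 24.9%, 25.5% and 26.9% in a8.19. These shares describe genes chosen on the same samples. In the libraries of a9.43+a9.44 and a8.22, which did not define the contrast, the higher genes took 20.4% to 22.8% of counts in a9.43+a9.44 and at most 10.3% in a8.22, and the lower genes 14.1% to 15.3% in a9.43+a9.44 and 25.4% to 26.8% in a8.22. The shares thus differed between the stages in epidermis-fated cells too. The a9.43+a9.44 cells came from the same embryos as a9.37+a9.38, per the labels.

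Part of the change was between no count and a count. Among the 1179 higher genes, 199 had no count in any a8.19 embryo, and 291 (24.7%) had a mean under 1 CPM there (CPM are read counts scaled to the size of the library). Among the 1191 lower genes, 36 had no count in any a9.37+a9.38 embryo and 65 (5.5%) had a mean under 1 CPM. Of all 12621 genes tested, 683 had no count in any a8.19 embryo, and 16.3% had a mean under 1 CPM there. In a9.37+a9.38, 689 of all genes had no count and 14.6% had a mean under 1 CPM. The lower genes were thus under 1 CPM after the step less often than all genes tested. Most called genes were therefore detected on both sides of the step. The higher genes had a median of 117 CPM in a9.37+a9.38, and the lower genes a median of 156 CPM in a8.19.

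KH.C4.405 and KH.C10.367 had the largest fitted rises among genes with at least 5 CPM and groups that do not overlap. KH.C4.405 had 105, 147 and 164 CPM in the a9.37+a9.38 embryos and no count in the 4 a8.19 embryos. It was at least 2464-fold higher after the step (adjusted p = 0.00821). The lower bound sets 3 counts over the whole a8.19 group. This gene was not new to the lineage, since 3 of the 5 a6.5 embryos held 84.5 to 100.5 CPM and the other 2 held none. In the sister cell a6.6 embryos 1 and 2 held none, as in a6.5, and embryos 3, 4 and 5 held 97.0, 83.5 and 97.3 CPM. Its level at 32 cells thus varied with the embryo, and the cause was not tested. In the epidermis-fated cells it had 121, 76.1 and 86.3 CPM in a9.43+a9.44, against 0, 0.470, 8.47 and 0 CPM in a8.22, which did not pass (adjusted p = 0.0952).

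KH.C10.367 had 27.3, 202 and 3.43 CPM in a9.37+a9.38 and none in a8.19, which puts it at least 1282-fold higher (adjusted p = 0.000675). That limit rests on embryo 2 and is 331-fold without it. No count of it was seen in a5.3, a6.5, a7.10, a7.11, a8.22 or a9.43+a9.44, and a single count in 1 of the 5 a6.6 embryos. Its level varied widely between the 3 embryos, and DESeq2 did not call it.

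KH.S1005.1 and KH.C9.766 had the largest fitted falls. In a9.37+a9.38 KH.S1005.1 was without a count, against 9.4, 92.1, 11 and 52.6 CPM in a8.19, a fall of at least 257-fold (adjusted p = 0.00745). KH.C9.766 had no count in a9.37+a9.38, against 57.5, 17.7, 45.8 and 38.4 CPM in a8.19, a fall of at least 243-fold (adjusted p = 0.00199). Both were present early, at 14 to 33.5 CPM and 2.39 to 15.5 CPM over the 5 a5.3 embryos, were at 0 in 7 and 6 of the 8 a7.10 embryos, and stood in all 4 a8.19 embryos. In a6.5 KH.S1005.1 had 20.8 and 19.3 CPM in embryos 1 and 2, against 1.36 to 2.37 CPM in embryos 3 to 5. KH.C9.766 had 10.25 and 10.85 CPM there, against 1.07 to 1.67 CPM. In a6.6 both genes were also higher in embryos 1 and 2 than in embryos 3 to 5. The cause of this variation with the embryo was not tested. Without a8.19 embryo 2 the limit of KH.S1005.1 is 136-fold, and without a9.37+a9.38 embryo 1, the deepest of its group, the limits of the 2 genes are 144.5-fold and 137-fold. KH.C4.405, KH.C10.367, KH.S1005.1 and KH.C9.766 kept their call when any 1 of the 7 embryos was left out.

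Most genes that changed over the step were present at the 16-cell stage, as were most genes tested. Of the higher genes 912 (77.4%) had a mean of at least 5 CPM in a5.3, and of the lower genes 1150 (96.6%), against 68.3% of all genes tested. Medians moved little before the step, while the lower part of the higher genes was already lower in a8.19. Their lower quartile was 7.19, 8.57, 9.61, 1.47 and 24.4 CPM in a5.3, a6.5, a7.10, a8.19 and a9.37+a9.38, and 14.4% of them had a mean under 1 CPM in a7.10 and 24.7% in a8.19. Higher genes had medians of 50.6, 55.3, 55.9, 45.9 and 117 CPM in a5.3, a6.5, a7.10, a8.19 and a9.37+a9.38, and lower genes 152, 142, 146, 156 and 77.1 CPM. All genes tested had medians between 31.3 and 33.0 CPM in the 5 cell types.

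**Figure D1:**
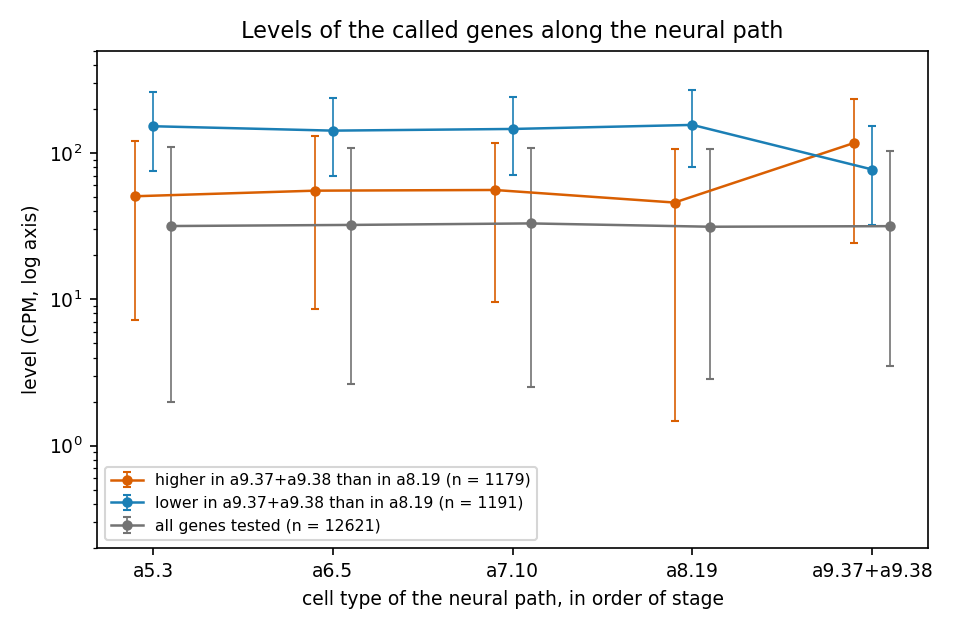
Level in CPM (log axis) in the 5 cell types of the neural path in order of stage, as the median over genes (points) and the quartiles (bars) of group means, for genes higher or lower in a9.37+a9.38 than in a8.19 and for all genes tested. Medians of the higher genes lie between 45.9 and 55.9 CPM from a5.3 to a8.19, where their lower quartile is lowest, and in a9.37+a9.38 the higher genes stand at 117 CPM and the lower genes at 77.1 CPM.

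The choice of the genes on the last pair of groups fixes that the medians part there and favours extreme levels in a8.19. Their earlier levels are a description without a test. Among the 5 cell types, 968 higher genes (82.1%, against 28.8% of all genes tested) had their highest mean in a9.37+a9.38. The lowest mean of 595 higher genes (50.5%, against 20.9% of all) was in a8.19. Of the lower genes 1055 (88.6%, against 29.1% of all) were lowest in a9.37+a9.38. Highest in a8.19 were 547 lower genes (45.9%, against 21.5%) and in a5.3 353 (29.6%, against 19.5%). The choice of the genes favours the shares in a8.19 and a9.37+a9.38. Genes that appear at the neural plate were few. Under 1 CPM in all 4 earlier cell types and at least 1 CPM in a9.37+a9.38 stood 106 higher genes (9.0%), against 2.6% of all genes tested. A similar number, 114 (9.7%, against 2.5% of all), had at least 1 CPM in a5.3, under 1 CPM in a8.19 and at least 1 CPM again in a9.37+a9.38. The pattern of KH.C4.405, at 0 in some embryos of an earlier group and at 5 CPM or more in others, was found in 114 higher genes (9.7%) and 25 lower genes (2.1%), against 15.2% of all genes tested.

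The epidermis-fated cells changed over the same interval by a similar amount. Between a9.43+a9.44 and a8.22, 2601 of the 12621 genes differed (20.6%), with 1327 higher (10.5%) and 1274 lower (10.1%). Higher in both a9.37+a9.38 than a8.19 and a9.43+a9.44 than a8.22 were 673 genes, which is 57.1% of the higher genes of the neural step, 50.7% of those of the epidermis step and 5.33% of all genes tested. Lower in both were 733 genes, 61.5% of the neural list, 57.5% of the epidermis list and 5.81% of all. Of the 1179 genes higher in a9.37+a9.38 than in a8.19, 1092 also had a positive log2 fold change in the epidermis step, with a median of 1.15 there. The steps use other libraries but the same embryos, so a trait of an embryo enters both.

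KH.C3.417 and KH.C10.551 led the genes higher in both steps. KH.C3.417 had 7.63, 21.1 and 44.4 CPM in a9.37+a9.38 and none in a8.19 (at least 402-fold, adjusted p = 0.0122), and 8.29, 12.9 and 38.9 CPM in a9.43+a9.44 and none in a8.22 (at least 290.0-fold, adjusted p = 0.0122). KH.C10.551 had 6.03, 12.3 and 25.2 CPM in a9.37+a9.38 and no count in a8.19 (at least 243-fold, adjusted p = 0.00108), and 14.6, 7.32 and 56.0 CPM in a9.43+a9.44 and no count in a8.22 (at least 396-fold, adjusted p = 0.000498). In both branches the groups were apart in every embryo. Without embryo 3 of the later group the limits are 238-fold and 189-fold for KH.C3.417 and 156-fold and 246-fold for KH.C10.551, in the neural and the epidermis step. With column 1 libraries alone the neural change of KH.C10.551 was not called (adjusted p = 0.101). KH.C2.1036 and KH.S1005.1 led the genes lower in both. KH.C2.1036 had no count in a9.37+a9.38, against 24.6, 10.6, 9.18 and 28.9 CPM in a8.19, a fall of at least 105-fold (adjusted p = 0.00664). It had no count in a9.43+a9.44 either, against 12.8, 12.3, 18 and 15.6 CPM in a8.22 (at least 161-fold lower, adjusted p = 0.00481). Without embryo 1 of the later group these limits are 59.3-fold and 66.5-fold. In the epidermis step KH.S1005.1 was at 0 in a9.43+a9.44, against 8.61, 6.05, 5.38 and 11 CPM in a8.22 (at least 84.7-fold lower, adjusted p = 0.0172), and lost that call without any 1 of the 3 a9.43+a9.44 embryos (adjusted p up to 0.0699), with a limit of 34.9-fold without embryo 1.

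The number of genes shown to change differently in the neural and the epidermis step depended on the tool. The difference of the steps itself passed edgeR's test in 35 of 12621 genes (0.277%), 15 with the change of the neural step above that of the epidermis step and 20 below. DESeq2 called 212, limma voom 66, and 1226 passed an unadjusted p of 0.05 in edgeR. Of the 15, 7 rose in the neural step and were not called in the epidermis step, 4 fell in the epidermis step and were not called in the neural step, 2 fell in both, 1 rose in both and 1 rose in the neural and fell in the epidermis step. Of the 20, 13 rose in the epidermis step and were not called in the neural step, 5 fell in the neural and rose in the epidermis step, 1 fell in both and 1 rose in both. Without 1 embryo the count lay between 11, without a9.43+a9.44 embryo 3, and 42. It was 23 without a9.37+a9.38 embryo 3 and 20 without a9.43+a9.44 embryo 2. Partner cells share embryos, and with the embryo as a block in the same fit 37 genes passed, 28 of them among the 35. With only the 4 cell types of the steps in the fit 10 genes passed, 8 of them among the 35, and with that fit and the block together 3 passed, all 3 among the 35.

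**Figure D2:**
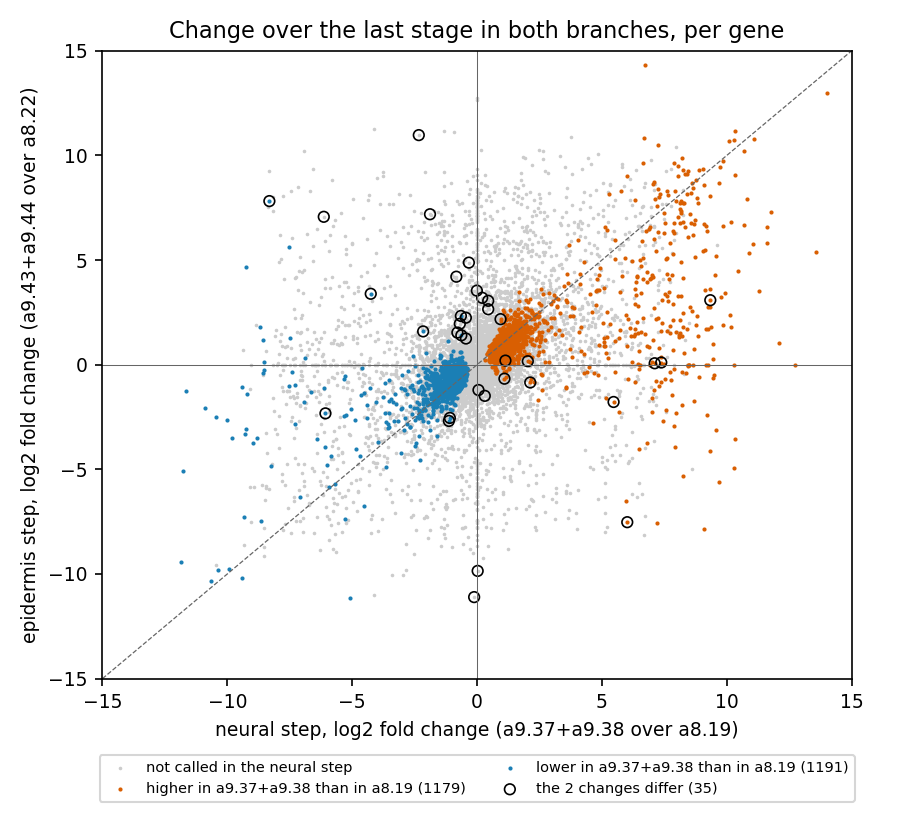
Each point is 1 of 12621 genes, with the log2 fold change of the neural step (a9.37+a9.38 over a8.19) on the x axis and that of the epidermis step (a9.43+a9.44 over a8.22) on the y axis. Orange and blue mark the 1179 higher and 1191 lower genes of the neural step, circles the 35 genes whose changes differ, and the dashed line equal change.

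The 3 genes of the fit with 4 cell types and the block were KH.C7.157, KH.C7.692 and KH.C9.701, named because so few passed and after their values were seen. They also passed with either change alone, and the values under the block below are from the fit of 4 cell types. KH.C7.157 had 778, 813 and 274 CPM in a9.37+a9.38, against 5.31, 4.17, 4.53 and 3.91 CPM in a8.19 (log2 fold change 7.1 ± 0.82 SE, adjusted p = 6.71e-08). It had 69.2, 75.3 and 67.4 CPM in a9.43+a9.44, against 19.0, 92.2, 25.1 and 133.8 CPM in a8.22 (0.07 ± 0.66, adjusted p = 0.974). The neural cells thus stood below every epidermis-fated embryo at 112 cells and above every one at the neural plate. The difference of the 2 changes was 7.04 ± 1.05 on the log2 scale (adjusted p = 0.0002), and 6.44 ± 0.81 with the embryo as a block (adjusted p = 0.043).

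KH.C7.692 behaved alike. It had 719, 783.5 and 385 CPM in a9.37+a9.38, against 16.6, 8.53, 4.59 and 27.6 CPM in a8.19 (5.47 ± 0.73, adjusted p = 7.77e-07). In a9.43+a9.44 it had 30.4, 51.3 and 31.8 CPM, against 60.3, 144, 34.8 and 281 CPM in a8.22, which overlap (-1.78 ± 0.67, adjusted p = 0.0545). The changes differed by 7.25 ± 1.01 (adjusted p = 6.48e-05), and by 7.08 ± 0.53 under the block (adjusted p = 0.00106).

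KH.C9.701 rose in both branches. It had 60.7, 66.7 and 105.0 CPM in a9.37+a9.38, against 0.159, 0.261, 0 and 0 CPM in a8.19 (9.34 ± 1.07, adjusted p = 6.71e-08). It had 1201, 1121 and 1452 CPM in a9.43+a9.44, against 139, 204, 221 and 30.4 CPM in a8.22 (3.08 ± 0.68, adjusted p = 0.00112). The epidermis-fated cells held more of it at both stages. The changes differed by 6.26 ± 1.32 (adjusted p = 0.0252) and by 6.32 ± 0.52 under the block (adjusted p = 0.00122). Without the block 5 of the 14 fits that left out 1 embryo did not call it, with an adjusted p of up to 0.0632, nor did limma voom, and the calls of KH.C7.157 and KH.C7.692 were kept in all 14.

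**Figure D3:**
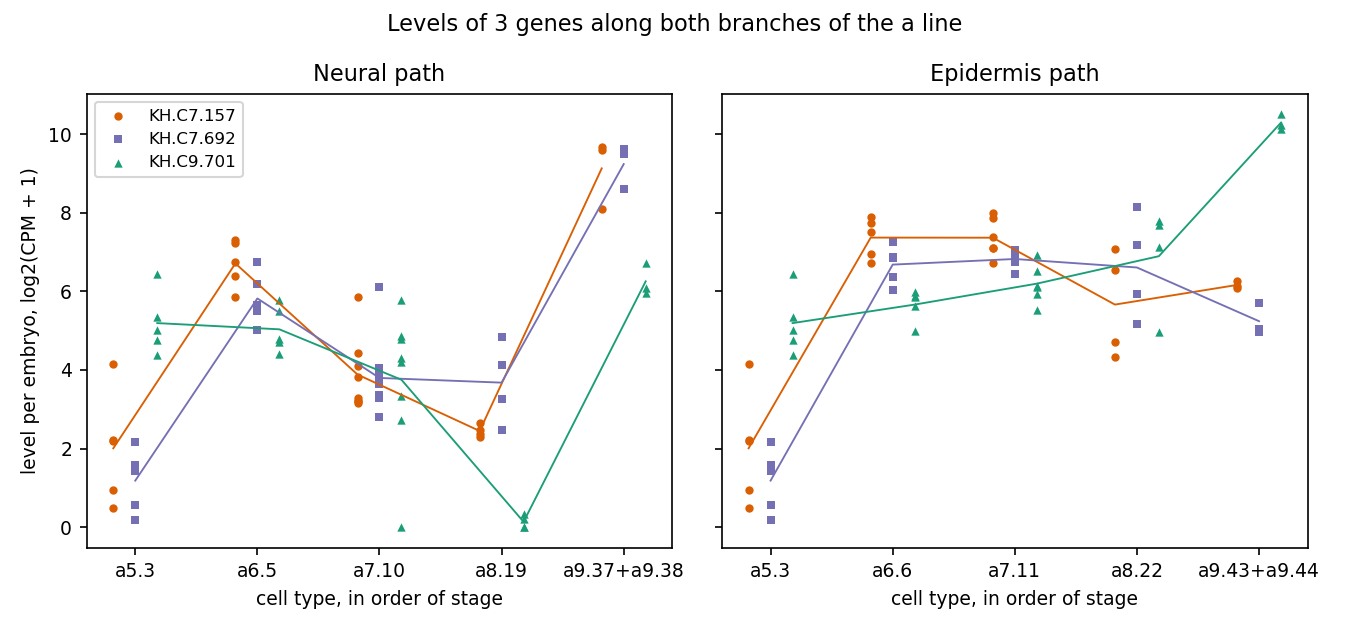
Level per embryo as log2(CPM + 1) of KH.C7.157, KH.C7.692 and KH.C9.701 in the cell types of the neural path (left) and the epidermis path (right), in order of stage, with points for embryos and lines through their means. In the neural path all 3 stand low in a8.19 and high in a9.37+a9.38, where KH.C7.157 and KH.C7.692 exceed every epidermis-fated embryo of that stage.

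All 3 had been present earlier in the neural path. KH.C7.157 had 57.1 to 158 CPM in the 5 a6.5 embryos and 7.96 to 56.4 CPM in the 8 a7.10 embryos, and KH.C7.692 had 31.3 to 106 CPM and 5.92 to 68.1 CPM. KH.C9.701 had 19.9 to 86.3 CPM in the 5 a5.3 embryos and 20.1 to 53.6 CPM in a6.5, and in a7.10 it was at 0 in 1 embryo and at 5.6 to 53.9 CPM in the other 7. In a8.19 KH.C9.701 stood at 0.261 CPM or less, and KH.C7.157 lay below every a6.5 and every a7.10 embryo.

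Among genes with a mean of 5 CPM or more and without overlap in a step, the 2 largest differences in each direction were in genes called in the epidermis step and not in the neural step. KH.L38.5 had 1.23, 10.7 and 56.0 CPM in a9.37+a9.38, against 21.5, 40.7, 12.4 and 23.6 CPM in a8.19 (adjusted p = 0.972). In a9.43+a9.44 it had no count, against 7.2 to 63.5 CPM in a8.22, at least 278-fold lower (adjusted p = 7.38e-05), a limit of 147-fold without a8.22 embryo 3 and 115-fold without a9.43+a9.44 embryo 1. KH.S992.1 likewise had 1.11 to 8.39 CPM in a9.37+a9.38, against 0 to 12.7 CPM in a8.19, and no count in a9.43+a9.44, against 0.0587 to 32.3 CPM in a8.22. The neural groups overlapped in both genes. KH.S388.4 had 6.16, 12.7 and 0 CPM in a9.37+a9.38, against 30.6, 37.4, 8.32 and 50.2 CPM in a8.19 (adjusted p = 0.333). In a9.43+a9.44 it had 23.7, 24.8 and 19.5 CPM and in a8.22 no count, at least 457-fold higher (adjusted p = 0.000488). KH.C2.912 had 2 embryos at 0 and 1 at 0.369 CPM in a9.37+a9.38, against 5.07, 6.06, 4.59 and 25 CPM in a8.19. The level in a8.19 was 56.8 times as high, with 95% counting limits of 19.3 and 276, and the change did not pass (adjusted p = 0.0568). In a9.43+a9.44 it had 0.302, 4.22 and 0 CPM and in a8.22 no count (at least 23.3-fold higher, adjusted p = 0.012), a limit of 4.58-fold and no call without embryo 2 (adjusted p = 0.118). The differences of the steps in these 4 genes lost their call without 1 embryo in 4 (KH.L38.5), 6 (KH.S992.1), 4 (KH.S388.4) and 12 (KH.C2.912) of 14 fits. The adjusted p there was up to 0.0684, 0.136, 0.0892 and 0.194. With the embryo as a block in the same fit 3 of the 4 lost it (adjusted p = 0.0532, 0.165 and 0.226), while KH.S388.4 kept it (adjusted p = 0.0323). With 4 cell types and the block KH.S388.4 lost it too (adjusted p = 0.341).

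Of 12621 genes tested, 8 were called in opposite directions in the 2 steps. KH.C10.213, KH.L109.4 and KH.C5.188 among them had means of at most 3.61 CPM in all 4 groups. In 7 of the 8 the neural step fell and the epidermis step rose. In 2 of these 7 the difference of the steps did not pass (adjusted p = 0.0617 and 0.0824). Of the 8, the 2 with the smallest adjusted p of the difference, KH.C9.700 and KH.C1.514, were chosen after their values were seen. KH.C9.700 averaged 32.4 CPM in a9.37+a9.38 against 50.8 CPM in a8.19 (-0.65 ± 0.23, adjusted p = 0.0439), and 425 CPM in a9.43+a9.44 against 84.7 CPM in a8.22 (2.33 ± 0.23, adjusted p = 4.91e-10). KH.C1.514 averaged 190.4 CPM in a9.37+a9.38 against 294 CPM in a8.19 (-0.63 ± 0.22, adjusted p = 0.0354), and 668 CPM in a9.43+a9.44 against 253 CPM in a8.22 (1.40 ± 0.21, adjusted p = 4.46e-06). The changes differed by -2.98 (adjusted p = 2e-07) and -2.03 (adjusted p = 0.000167), and both differences were called in the block fit of all a-line types and in each of the 14 fits without 1 embryo. The neural fall was under 2-fold in both genes and was lost in 14 and 12 of 18 alternatives. In KH.C1.514 the neural groups overlapped, with 155 to 240.5 CPM in a9.37+a9.38 and 201 to 421 CPM in a8.19.

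Genes that set the branches apart at the 64-cell stage were followed across the step. At 64 cells a7.10 and a7.11 differed in 91 genes (0.721% of those tested), of which 54 were higher (0.428%) and 37 lower (0.293%) in a7.10, called here the neural and the epidermal list. They come from other embryos than the step. Contrasts between branches within a stage were fitted without the embryo as a block, although partner cells share embryos. In the neural list 3 of 54 genes rose and 3 fell over the neural step, where 9.34% of all genes tested rose and 18.8% changed in either direction, with a median log2 fold change of 0.22 beside 0 over all genes tested, and median levels of 64.3 CPM in a9.37+a9.38 and 66.8 CPM in a8.19. A mean of 5 CPM or more was reached by 42 of the 54 in a9.37+a9.38 and by 50 in a8.19. The branches stayed apart in part of it. Of the 54 genes, 12 were higher in a9.37+a9.38 than in a9.43+a9.44 and 0 lower by edgeR, where 1.27% of all genes tested differed (0.483% higher and 0.784% lower), and 48 had a positive log2 fold change, with a median of 2.72. One stage earlier 11 were higher in a8.19 than in a8.22 and 0 lower, where 0.879% of all genes differed (0.467% higher and 0.412% lower), with a median of 2.77. DESeq2 called 159 genes for the neural list, of which 17 rose and 6 fell over the neural step, and 12 were higher and 0 lower in a9.37+a9.38 than in a9.43+a9.44. Their median log2 fold change between these neural-plate branches was 1.01.

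Of the 3 neural-list genes called higher after the step, the 2 with the largest fold change, chosen after their values were seen, were KH.C6.128 and KH.C12.142. KH.C6.128 averaged 675 CPM in a9.37+a9.38 against 145 CPM in a8.19 (log2 fold change 2.22, adjusted p = 3.35e-05), and 112 CPM in a9.43+a9.44 against 48.5 CPM in a8.22. KH.C12.142 averaged 496 CPM in a9.37+a9.38 against 121 CPM in a8.19 (2.03, adjusted p = 9.60e-07), and 90.1 CPM in a9.43+a9.44 against 80.6 CPM in a8.22. Both were already higher in a7.10 than in a7.11, at 109 against 49.6 CPM and 81.0 against 37.0 CPM. KH.C12.142 is among the 35 genes whose changes differ between the steps (1.87 ± 0.39, adjusted p = 0.0218). This call was kept in 17 of 21 alternatives. It was lost without a9.37+a9.38 embryo 2 or a9.43+a9.44 embryo 3 (adjusted p up to 0.128). It was also lost with only the 4 cell types of the steps in the fit (adjusted p = 0.326), and with that fit and the embryo as a block (adjusted p = 0.29). Among list genes with a mean of 5 CPM or more whose a7.10 and a7.11 embryos do not overlap, KH.C11.328 had the largest fold change at 64 cells and KH.C10.74 the second. KH.C11.328 had 158, 395 and 590.5 CPM in a9.37+a9.38, against 127, 195, 140 and 178 CPM in a8.19, which overlap (1.25 ± 0.86, adjusted p = 0.336). It had 7.54, 18.4 and 7.62 CPM in a9.43+a9.44, and the neural-plate branches differed in it by 5.09 ± 1.11 (adjusted p = 0.0113). KH.C10.74 had 119, 195 and 208 CPM in a9.37+a9.38, against 74.2, 95.4, 80.6 and 14.7 CPM in a8.19 (1.40 ± 1.11, adjusted p = 0.416). It had 33.4, 32.6 and 23.0 CPM in a9.43+a9.44, and its difference between the neural-plate branches did not pass (2.55 ± 1.27, adjusted p = 0.469).

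The epidermal list was more often up than down over the neural step. In it 8 of 37 genes were higher in a9.37+a9.38 than in a8.19, where 9.34% of all genes were. Lower was 1 gene, where 1191 of all 12621 genes were. In the epidermis step 13 rose and 1 fell, where 10.5% of all genes rose and 10.1% fell. The median log2 fold change of the neural step was 0.28, and the median levels were 77.5 CPM in a9.37+a9.38 and 15.3 CPM in a8.19. Set against a9.43+a9.44, 14 of the 37 genes were lower in a9.37+a9.38 and 3 higher, with a median of -1.12. Of all genes tested 0.784% were lower and 0.483% higher there. At 112 cells 14 were lower in a8.19 than in a8.22 and 0 higher, against 0.412% and 0.467% of all genes. With DESeq2's list of 102 genes, 15 rose and 8 fell over the neural step, where 1179 and 1191 of all 12621 genes did.

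**Figure D4:**
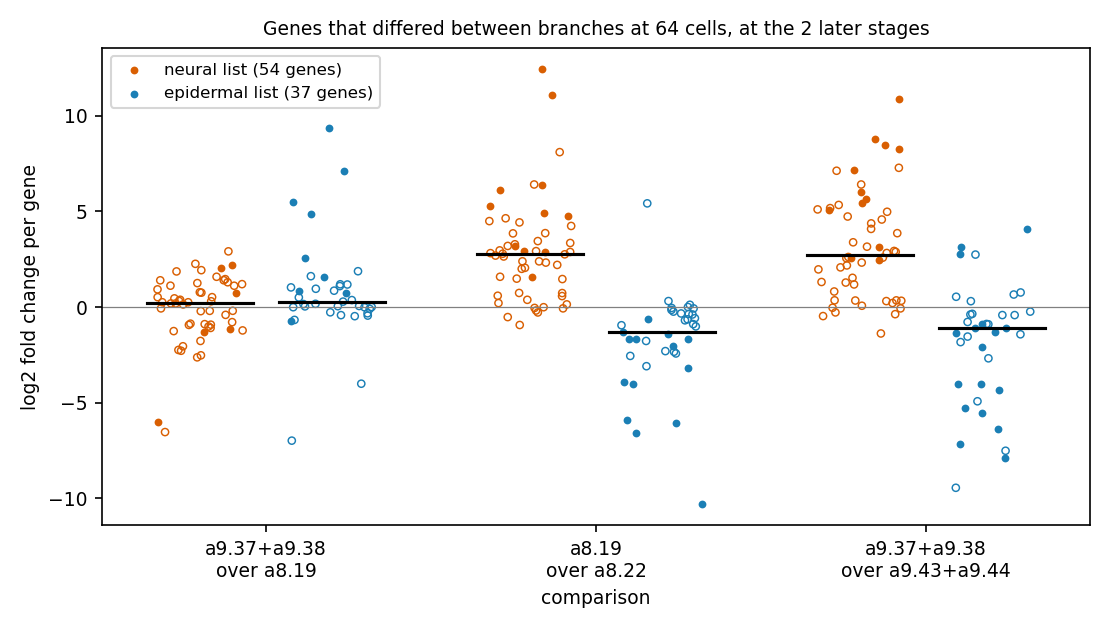
Log2 fold change of each gene of the neural list (orange, 54 genes) and the epidermal list (blue, 37 genes) in 3 comparisons, with filled points for genes called by edgeR and black lines at the median of the list. Medians lie near 0 over the step (0.22 and 0.28) and at 2.72 and -1.12 in a9.37+a9.38 over a9.43+a9.44.

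The 3 epidermal-list genes that were higher in a9.37+a9.38 than in a9.43+a9.44 included KH.C7.157 and KH.C7.692 described above. They had stood at 7.96 to 56.4 and 5.92 to 68.1 CPM in a7.10, against 105 to 253 and 85.4 to 131 CPM in a7.11, so that the branch with the higher level was the other one at 64 cells. The last was KH.C11.529, with 69.2, 38.4 and 44.0 CPM in a9.37+a9.38, against 5.15, 1.30, 4.77 and 23.6 CPM in a8.19 (2.54 ± 0.62, adjusted p = 0.00303). It had 16.0, 4.72 and 1.35 CPM in a9.43+a9.44, below every a9.37+a9.38 embryo (2.76 ± 0.70, adjusted p = 0.0298). Its call over the neural step was lost in the fit of the 2 groups alone and in that of the last 2 stages. By the same limits on level and overlap, KH.C12.323 had the largest fold change of the epidermal list at 64 cells and KH.L37.13 the second. KH.C12.323 had 5.29, 0.192 and 3.62 CPM in a9.37+a9.38, against 0, 3.91, 0 and 0 CPM in a8.19 (1.61 ± 1.37, adjusted p = 0.452). In a9.43+a9.44 it had 684, 305 and 345 CPM, which is far above both neural groups. KH.L37.13 had 1.72, 0 and 3.43 CPM in a9.37+a9.38, against 0, 1.56, 0 and 0.273 CPM in a8.19 (adjusted p = 0.481). It had 8.49, 0.620 and 24.2 CPM in a9.43+a9.44, and its difference between the neural-plate branches did not pass (-2.68 ± 1.90, adjusted p = 0.733).

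Cells of column 2 and column 1 of the plate were compared within a9.37+a9.38. The labels give 3 libraries for each column, and 2 embryos hold both. Embryo 3 holds a column 2 cell alone. The test takes single libraries within embryos, so its p-values measure mainly the spread between cells, and only 2 embryos contribute to the contrast. Of 9501 genes tested, 3 passed (0.0316%), and all 3 were lower in column 2. With libraries of the same embryo and column summed, a choice made after seeing the data, KH.C7.154 alone passed (adjusted p = 0.0434), and KH.C7.157 and KH.C7.692 did not (adjusted p = 0.143 and 0.0856). At an unadjusted p of 0.05, 648 genes passed, and DESeq2 called 100, 25 higher and 75 lower. Of the 3 genes, named because they are so few, 2 were again KH.C7.157 and KH.C7.692.

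KH.C7.157 had 78.0 CPM in the column 2 cell of embryo 1, against 926 and 981 CPM in its 2 column 1 cells, and 219 CPM in the column 2 cell of embryo 2, against 1185 CPM in its column 1 cell (log2 fold change -3.08 ± 0.32 SE). KH.C7.692 had 132 CPM in column 2 of embryo 1, against 819.3 and 902 CPM in column 1, and 90.7 CPM in column 2 of embryo 2, against 1220.0 CPM in column 1 (-3.14 ± 0.31). The column 2 cells lay below all column 1 cells and, for both genes, above the 3.91 to 27.6 CPM of the a8.19 embryos, whose CPM were scaled in another fit. The column 2 cell of embryo 3 had 267 and 375 CPM, and its embryo had the lowest level of both genes among the 3 embryos above. KH.C7.154 had no count in column 2 of embryo 1, against 42.7 and 47.0 CPM in column 1, and 0.477 CPM in column 2 of embryo 2, against 134 CPM in column 1 (-8.37 ± 0.83). In embryo 3 the column 2 cell had 83.4 CPM, within the range of column 1, and the 6 a9.43+a9.44 libraries had 850.0 to 1923 CPM. The adjusted p was 0.0236 for each of the 3 genes, and without embryo 1 or embryo 2 no gene passed (adjusted p of these genes 0.122 to 0.462).

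**Figure D5:**
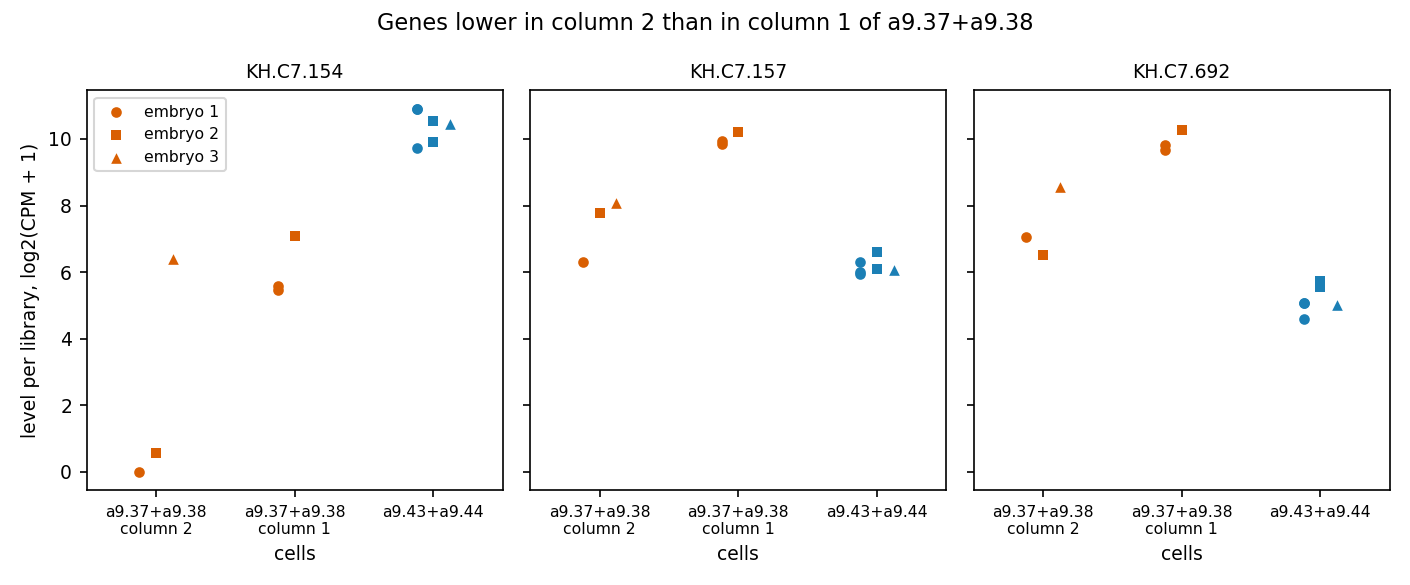
Level per library as log2(CPM + 1) of the 3 genes lower in column 2 than in column 1 of a9.37+a9.38 (orange), with a9.43+a9.44 beside them (blue), and a symbol for each embryo. In embryos 1 and 2 every column 2 library lies below the column 1 libraries, and KH.C7.154 in embryo 3 does not.

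The step was called with the cells of either column. With column 1 libraries alone 2044 genes differed between a9.37+a9.38 and a8.19, 1674 of them among the 2370, and with column 2 libraries alone 2244, of which 1774 were among them. Both KH.C7.157 and KH.C7.692 kept their call in either case.

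Fewer genes were called over the same interval in the posterior neural cells of the A line. The later group there holds 2 embryos, against 3 of a9.37+a9.38, and the effect of this on the counts was not tested. Between A9.13+A9.14 and A8.7, 345 of 13112 genes differed (2.63%), 210 higher (1.60%) and 135 lower (1.03%), with 2 embryos in the later group. Without 1 of these 2 embryos 92 and 66 genes passed. In the same fit 998 genes differed over the a-line step, 536 higher (4.09%) and 462 lower (3.52%). Of the 210 genes higher in the A line 119 (56.7%) were also higher in a9.37+a9.38 than in a8.19, which is 22.2% of the a-line genes of this fit. Of the 135 lower genes 104 (77.0%) were also lower, 22.5% of the a-line genes. The difference of the steps was tested per gene. It passed in 3 of 13112 genes (0.0229%), 1 with the a-line change above the A-line change and 2 below. At an unadjusted p of 0.05, 855 passed, DESeq2 called 125, and leaving out 1 embryo gave 2 to 6.

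KH.S1138.2 had 28.4, 20.6 and 38.1 CPM in a9.37+a9.38, against 133, 112, 121 and 120.3 CPM in a8.19 (-2.07 ± 0.83, adjusted p = 0.133 in this fit). In the A line it had 46.3 and 26.3 CPM in A9.13+A9.14, against 0 in 4 A8.7 embryos and 0.991 CPM in the other (7.18 ± 0.93, adjusted p = 3.21e-05). The lineages did not overlap at 112 cells and overlapped at the neural plate, and the changes differed by -9.25 ± 1.32 (adjusted p = 0.000876). KH.C14.71 rose in both. It had 286, 183 and 124 CPM in a9.37+a9.38, against 47.0, 60.5, 38.4 and 62.5 CPM in a8.19 (1.92 ± 0.35, adjusted p = 0.000743), and 201 and 218 CPM in A9.13+A9.14, against 1.81 to 5.66 CPM in A8.7 (5.86 ± 0.39, adjusted p = 7.42e-11). Its changes differed by -3.94 ± 0.53 (adjusted p = 0.000491), which limma voom did not call. KH.C3.16 had 41.0, 44.1 and 45.0 CPM in a9.37+a9.38, against 13.0, 6.57, 8.27 and 1.78 CPM in a8.19 (2.55 ± 0.47, adjusted p = 0.00088), and 32.6 and 45.4 CPM in A9.13+A9.14, against 82.2 to 152 CPM in A8.7 (-1.55 ± 0.55, adjusted p = 0.147). Its difference of 4.10 ± 0.75 (adjusted p = 0.0335) was no longer called in 11 of 14 fits that left out an embryo, while the other 2 genes kept theirs in all 14.

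KH.C7.157, KH.C7.692 and KH.C9.701 varied between the A-line embryos. KH.C7.157 had 1.16 and 262 CPM in the 2 A9.13+A9.14 embryos, against 0 to 47.4 CPM in A8.7, and KH.C7.692 had 2.65 and 253 CPM, against 0 to 56.3 CPM. Both groups overlap in each gene, and neither the A-line step (adjusted p = 0.21 and 0.228) nor its difference from the a-line step passed (3.55 ± 2.18 and 2.12 ± 2.04, adjusted p = 0.843 and 1.0). KH.C9.701 had 2.65 and 34.9 CPM in A9.13+A9.14, against 0 to 18.9 CPM in A8.7, and its changes differed by 7.89 ± 2.07 (adjusted p = 0.472).

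The number of genes detected was not shown to differ at equal depth per embryo. Thinned to 5262550 counts, 11083 ± 620.5 genes had a count in a9.37+a9.38 (SD, n = 3) and 10623 ± 492 in a8.19 (SD, n = 4), p = 0.4 in a two-sided exact permutation test, where 0.0571 is the smallest p that 35 arrangements allow. The fewest genes in each group, 10397 and 9887, were in the embryo with a single library. When each library was thinned to 1777695 counts and averaged per embryo, a choice made after seeing the data, a9.37+a9.38 had 10081 ± 33.9 genes and a8.19 had 9760 ± 114 genes, without overlap (exact permutation p = 0.0571). The difference was 321 genes.

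Cells of an embryo were hardly more alike than cells of different embryos. Over log2 CPM of all genes in both groups' libraries, Pearson's r, given as a description across genes, was 0.873 to 0.890 between a9.37+a9.38 cells of the same embryo (4 pairs) and 0.862 to 0.889 between those of different embryos (11 pairs). For a8.19 it was 0.889 to 0.900 (3 pairs) and 0.878 to 0.901 (18 pairs). Pairs with 1 cell of each type had 0.827 to 0.862 (42 pairs), at most as high as the lowest pair within a type.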

How the data were processed

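Single blastomeres were lysed one by one, cDNA was amplified with a low-input template-switching kit, and tagmented libraries were sequenced single-end, per the labels' protocols. The authors deposited raw whole-number counts per gene, without normalization. The aligner was STAR 2.7.10a, per the submitters' processing notes, while build, annotation and counter are not given in the sources here. No library held a count of 244 gene models, and 0 columns lacked a sample. The count per library sets the precision of low genes.

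Counts were summed per embryo and cell type and tested with edgeR 4.0.16 (R 4.3.3; TMM, filter on low counts by group, robust quasi-likelihood F test, Benjamini-Hochberg adjustment, threshold 0.05). All a-line types shared 1 fit, and the 8 types of the last 2 stages another for A-line comparisons. Columns were compared on libraries with the embryo as a block, and also on sums per embryo and column. SE were taken from the F statistic. CPM used TMM-scaled totals. DESeq2 1.42.0 and limma 3.58.1 served as alternatives, beside other size factors, no filter, fewer groups, thinned counts, 1 library per embryo and leaving out each embryo. Scripts were tested on simulated counts. Members, lists and tests were chosen with earlier results of these data known.

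Named genes had an adjusted p below 0.05, 5 CPM or more on average where they were higher, and embryos that do not overlap (for differences of steps, in at least 1 step), and the first 2 in each direction by absolute log2 fold change were taken. For both steps the smaller absolute fold change ranked genes, and for the 64-cell lists, under the same limits, the fold change at 64 cells. Genes outside the rule are said to be chosen after their values were seen. Partner cells share embryos by the labels, which pairs them: residuals of same-embryo samples correlated with r = 0.0853 to 0.0968 at the neural plate and 0.0343 to 0.0469 at 112 cells. P-values measure the spread between embryos, and for columns mainly that between cells within embryos.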

Additional observations from a re-analysis of the deposited data

Results flagged for a closer look

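Among the 35 genes whose changes differ between the branches by a test of the difference itself, those described above had differences of, on the log2 scale and as neural step minus epidermis step, 10.99 for KH.L38.5, 9.88 for KH.S992.1, -13.3 for KH.S388.4, -13.2 for KH.C2.912, 7.04 for KH.C7.157, 7.25 for KH.C7.692, 6.26 for KH.C9.701, -2.98 for KH.C9.700, -2.03 for KH.C1.514 and 1.87 for KH.C12.142. KH.L38.5 and KH.S992.1 had no count in a9.43+a9.44, and KH.S388.4 and KH.C2.912 had none in a8.22. The fitted differences of these genes are therefore not estimates of size. As a-line minus A-line neural step the differences were 4.10 for KH.C3.16, -9.25 for KH.S1138.2 and -3.94 for KH.C14.71. In all of A8.7 KH.S1138.2 had 16 counts, and in all of a8.19 KH.C9.701 had 6. The sizes of their fitted differences therefore rest on few counts.

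Some embryos lay far from the others of their group. In a8.22, KH.C4.405 had 8.47 CPM in embryo 3, KH.S992.1 32.3 CPM in embryo 4 and KH.C11.328 7.36 CPM in embryo 1. In a8.19, KH.C2.912 had 25 CPM in embryo 4, KH.C12.323 3.91 CPM in embryo 2 and KH.C7.154 24.3 CPM in embryo 1, and embryo 4 had the fewest genes detected at equal depth, 9887. It is the only a8.19 embryo with 1 library. In A8.7, KH.S1138.2 had 0.991 CPM in embryo 7 and none in the others. The rule for such values was applied to 57 groups of values. Chance alone singles out about 1 group in 20 where values are normally distributed. A group with a count in only 1 embryo is always singled out.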

How the results depend on the processing

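The neural step kept a count within 1.5 times of 2370 under other size factors, no filter, DESeq2, limma voom, thinned counts, 1 column or 1 library per embryo, and 1707 to 2135 when 1 embryo was left out. By limma voom 1392 of 2249 genes (61.9%) were higher in a9.37+a9.38, against 49.7% in the edgeR fit, and the median of all genes lay at 0.114 on the log2 scale. Only the 2 groups gave 1251 genes and the last 2 stages 998. A replicate block by embryo number gave 725, but the stages come from different embryos, with r of -0.0396 to 0.00391, so these numbers do not pair. For the difference from the epidermis step, the genes numbered 66 by voom, 212 by DESeq2, 10 with 4 cell types, 3 with 4 cell types and the replicate block, 37 with the replicate block alone (chosen after seeing the data), and 11 to 42 without 1 embryo. The epidermis step had 1534 genes with only its 2 groups, and 1801 to 2284 without 1 embryo. The A-line difference had 12 by voom and 125 by DESeq2, and 2 to 6 without 1 embryo. The A-line step had 1113 by voom, 761 by DESeq2, 174 with its 2 groups, and 66 (without A9.13+A9.14 embryo 2), 92 (without embryo 1) and up to 345 when 1 embryo was left out. Columns differed in 100 genes by DESeq2, in 1 with libraries of an embryo and column summed (chosen after seeing the data) and in 0 without embryo 1 or 2 by edgeR. With DESeq2's 64-cell lists, 17 of 159 neural-list genes rose and 6 fell over the step. Of 102 epidermal-list genes 15 rose and 8 fell, where 9.34% of all genes rose and 18.8% changed. Genes detected per sample gave an exact permutation p of 0.4, of 0.2857 with at least 5 counts and of 0.6286 unthinned. Over 924 refits of the named genes, 795 kept their side of the threshold, 115 lost the call, 14 gained one and no called change reversed. The causes were not tested.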
